A study of Homo sapiens with 6 samples.

Results

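The genes described here are 10 genes of the NF-kB pathway that encode subunits of the transcription factor, its inhibitors and the kinase complex that releases it: NFKB1, NFKB2, RELA, RELB, NFKBIA, NFKBIB, NFKBIE, TNFAIP3, IKBKB and IKBKG. They were taken by gene symbol from the deposited table, and all 10 were found among its 17297 genes, each above 1 CPM on average (CPM are read counts scaled to library size). The samples are RNA-seq libraries of LNCaP cells, a long-established prostate cancer line of human origin with luminal and androgen-responsive features. A line stably carrying pBabe with the wild-type GNA13 cDNA (pBabe-GNA13, 3 libraries) was compared with a line carrying the empty vector (pBabe-vector, 3 libraries). GNA13 encodes Gα13, the α subunit of a heterotrimeric G protein. Both lines were selected with puromycin and grown in RPMI with serum for 48 h before RNA extraction, and no stimulus of the NF-kB pathway is named. Each condition was 1 stable line, so the replicates were cultures of that line and p-values measure the spread between cultures only. In each line 1 library has the tag std in its column heading, which is replicate 1 for pBabe-vector, while for pBabe-GNA13 the heading names the line but not clearly the replicate, and that library is called the std library. Values below are given in the order std library, replicate 2 and replicate 3 for pBabe-GNA13, and replicate 1 (also tagged std), 2 and 3 for pBabe-vector.

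NF-kB is a family of dimeric transcription factors. NFKB1 and NFKB2 encode the precursors p105 and p100, which are processed to the DNA-binding subunits p50 and p52, while RELA and RELB encode subunits with a transactivation domain. In unstimulated cells the dimers are held in the cytoplasm by IκB proteins, encoded by NFKBIA, NFKBIB and NFKBIE, until the IκB kinase complex (IKBKB and its regulatory subunit IKBKG, also called NEMO) marks an IκB for degradation. In the alternative branch, p100 itself retains RELB until it is processed to p52. NFKBIA, TNFAIP3 (the ubiquitin-editing protein A20), NFKB1, NFKB2 and RELB are known targets of NF-kB, so they form the feedback of the pathway and are often read as a record of its activity.

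Feedback by NF-kB runs through short sites close to the start of these genes, and 4 upstream stretches are shown for this reason. The motif searched was GGGNNNTTCC on both strands, which reads GGAANNNCCC on the other strand, with overlapping matches counted, in windows from 250 bases before to 50 bases after each start listed by RefSeq (GRCh38.p14). Windows were at hand for 7 of the 10 genes, with RELB, NFKBIE and IKBKB not analysed here. The motif was present in 5 of these 7 genes, against 7.83% of all 27305 genes with a window. By window, it was present in 6 of their 15 (40%), against 6.52% of all 35116 windows. The genes with a match were NFKB1, TNFAIP3, NFKB2, NFKBIA and NFKBIB, and the stretch of NFKBIB is not shown. RELA and IKBKG had no match in their windows. Below, each stretch runs 5′ to 3′ on the strand of the gene, with matches in capitals. The stretches lie at chr4:102501109-102501329 (NFKB1), chr6:137867009-137867213 (TNFAIP3), chr10:102395455-102395693 (NFKB2) and, on the minus strand, chr14:35404750-35404999 (NFKBIA).
NFKB1: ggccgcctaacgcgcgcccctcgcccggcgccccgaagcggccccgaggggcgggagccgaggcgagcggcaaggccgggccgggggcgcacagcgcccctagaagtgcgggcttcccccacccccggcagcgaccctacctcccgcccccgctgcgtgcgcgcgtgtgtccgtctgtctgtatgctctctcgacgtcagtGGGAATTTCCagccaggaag
TNFAIP3: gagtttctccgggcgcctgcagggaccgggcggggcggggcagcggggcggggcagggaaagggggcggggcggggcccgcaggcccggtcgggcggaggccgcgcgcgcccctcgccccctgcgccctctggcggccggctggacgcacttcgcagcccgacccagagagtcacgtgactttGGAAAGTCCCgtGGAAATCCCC
NFKB2: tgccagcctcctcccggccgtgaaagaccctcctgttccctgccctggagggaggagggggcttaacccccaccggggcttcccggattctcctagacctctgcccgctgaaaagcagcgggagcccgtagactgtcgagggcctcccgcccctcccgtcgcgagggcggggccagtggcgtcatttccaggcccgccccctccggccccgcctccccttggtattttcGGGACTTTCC
NFKBIA: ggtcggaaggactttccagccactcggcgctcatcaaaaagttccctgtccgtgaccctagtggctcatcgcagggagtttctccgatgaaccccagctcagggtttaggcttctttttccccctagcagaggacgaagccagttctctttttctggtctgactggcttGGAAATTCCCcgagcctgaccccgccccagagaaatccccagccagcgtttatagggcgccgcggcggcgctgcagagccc
The last match ended 39 bases before the RefSeq start of NFKB1, 45 before that of TNFAIP3, 11 before that of NFKB2 and 71 before that of NFKBIA. The NFKB2 stretch precedes an alternative start inside the annotated gene, and another window of NFKB2 held 2 further matches. A match describes the letters and does not show that a factor was bound in these cells.

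The 6 libraries held between 33002160 and 40628970 read counts, and the floor of 3 counts corresponded to 0.0715 to 0.0935 CPM. The floor covers counting error only, as reads were counted without identifiers of single molecules. GNA13, which checks the labels, was at 820, 886 and 747 CPM in pBabe-GNA13 and at 76.7, 69.4 and 65.4 CPM in pBabe-vector. KLK3, a kallikrein that marks luminal prostate cells and LNCaP, was at 2445 to 4204 CPM in pBabe-GNA13 and at 1836 to 3784 CPM in pBabe-vector. Over all genes, 24 of 17297 (0.139%) had a Benjamini-Hochberg adjusted p under 0.05 in the quasi-likelihood test of edgeR, 20 higher and 4 lower in pBabe-GNA13. Libraries of the same pair (std with std, 2 with 2, 3 with 3) deviated together, and with the pair as a block 1612 genes (9.32%) were called higher and 1795 (10.4%) lower. Genes on chromosome 12 had a median log2 fold change of 0.30 and those on chromosome 20 one of −0.21, against −0.001 for all genes. Smaller shifts were seen on chromosomes 22 (−0.15) and 9 (0.12). Values relative to the chromosome are therefore given where they matter.

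None of the 10 genes passed without the block, where 0.139% of all genes did. At an unadjusted p under 0.05, edgeR gave 1 of the 10, near the 8.46% of all genes. DESeq2 and limma-trend also called 0 of the 10 at an adjusted p under 0.05. Over all genes, DESeq2 called 271 of 16122 (1.68%) and limma-trend called 5. With the block, 1 of 10 was called lower, NFKB2, and 0 higher, a share close to the 10.4% of all genes called lower. In 2 of 10 genes, NFKB2 and NFKBIB, all 3 pBabe-GNA13 libraries lay below all 3 pBabe-vector libraries, and in 0 of 10 above, while 6.79% of all genes were separated downward and 7.3% upward. The median log2 fold change of the 10 genes was −0.09, beside −0.001 for all genes and −0.01 for the 14059 genes at 1 CPM or more.

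**Figure D1:**
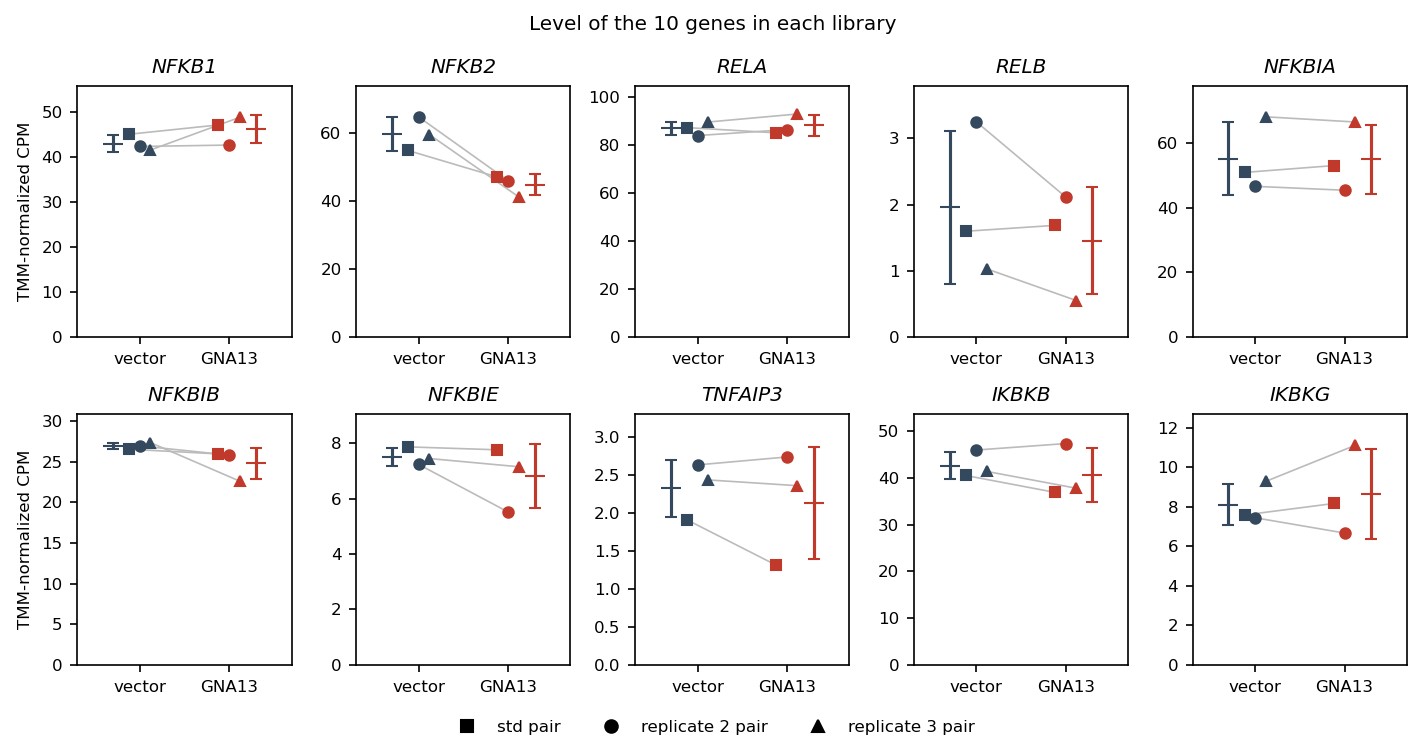
TMM-normalized CPM (y axis, from 0) of the 10 genes in each of the 6 libraries, pBabe-vector in dark and pBabe-GNA13 in red, with grey lines joining libraries of a pair and the mean ± SD of each line beside the points. NFKB2 is lower in pBabe-GNA13 in each pair, and the values of NFKBIA differ between pairs far more than between lines.

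NFKB2 alone among the 10 was called in any fit. The gene lies on chromosome 10 from 102394110 to 102402524 (GRCh38, Gencode 44). It was at 47.1, 46.1 and 41.3 CPM in pBabe-GNA13 and at 54.9, 64.8 and 59.6 CPM in pBabe-vector. Each pBabe-GNA13 library was below each pBabe-vector library, with a gap between 47.1 and 54.9 CPM. The means were 44.8 ± 3.11 CPM and 59.8 ± 4.94 CPM (SD, n = 3 each). The log2 fold change was −0.41 (standard error 0.10, 95% interval −0.66 to −0.17), with an adjusted p of 0.304 in edgeR. With the pair as a block it was −0.41 (standard error 0.06, 95% interval −0.54 to −0.29), with an adjusted p of 1.07e-05 in edgeR. The exact two-sided permutation test of the 3 against 3 libraries gave p = 0.10, the smallest that this design allows. By pair, the difference in log2 CPM was −0.22 in the std libraries, −0.49 in the second replicates and −0.53 in the third. Blocked fits without 1 pair each time still called NFKB2, with an adjusted p in edgeR of at most 0.000174. In bulk RNA, a lower level per cell and fewer cells with the transcript cannot be told apart. The surrounding genes did not move with NFKB2: the 78 genes starting within 5 Mb had a median log2 fold change of −0.003, and all of chromosome 10 one of −0.05.

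NFKB1, the other precursor gene, lies on chromosome 4 from 102501330 to 102617302. It was at 47.1, 42.6 and 48.8 CPM in pBabe-GNA13 and at 45.0, 42.3 and 41.5 CPM in pBabe-vector. The groups overlapped, although the pBabe-GNA13 library was the higher one in 3 of 3 pairs. Its log2 fold change was 0.10 (95% interval −0.12 to 0.33, adjusted p in edgeR 0.910), and the blocked interval was −0.02 to 0.22.

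RELA, which encodes the p65 subunit of the classical dimer, lies on chromosome 11 from 65653599 to 65663090. It was the steadiest of the 10 genes, at 85.2, 86.6 and 93.1 CPM in pBabe-GNA13 and at 87.4, 84.1 and 89.7 CPM in pBabe-vector. The highest library was 1.11 times the lowest. Between the lines it differed by 0.02 on the log2 scale, and the blocked 95% interval ran from −0.09 to 0.13, so a change as large as that of NFKB2 lay outside it. RELA shares 103 exon bases with the antisense gene RELA-DT, and whether the counting used the strand was not found in the sources used here.

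RELB, the partner of p100 and p52 in the alternative branch, lies on chromosome 19 from 45001461 to 45038192. It was a low gene, with 1.69, 2.12 and 0.552 CPM in pBabe-GNA13 and 1.60, 3.25 and 1.03 CPM in pBabe-vector. These values rest on 19 to 110 reads per library. In both lines replicate 2 was the highest and replicate 3 the lowest, and the groups overlapped. The log2 fold change of −0.43 had a 95% interval from −1.72 to 0.86 without the block and from −0.89 to 0.06 with it, so a fall of the size seen in NFKB2 lay within both intervals, as did no change.

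Reads of 1 subunit gene over another within the same library do not depend on library size. The ratio of NFKB2 to NFKB1 reads was 1.00, 1.08 and 0.847 in pBabe-GNA13 and 1.22, 1.53 and 1.44 in pBabe-vector. The precursor genes thus had near equal reads in pBabe-GNA13, while NFKB2 reads exceeded NFKB1 reads in each pBabe-vector library. The ratio of NFKB2 to RELA reads was 0.553, 0.532 and 0.444 in pBabe-GNA13 and 0.628, 0.771 and 0.664 in pBabe-vector. Both ratios separated the lines without overlap, each at the smallest p that the exact permutation test allows (0.10). Both use the NFKB2 reads, so they are not independent of each other or of the lower NFKB2 level. The ratio of NFKB1 to RELA reads overlapped, with 0.523 ± 0.0301 in pBabe-GNA13 and 0.494 ± 0.0274 in pBabe-vector (SD, n = 3 each, exact permutation p = 0.4). These 3 were among 8 ratios computed, and the other 5 overlapped between the lines.

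**Figure D2:**
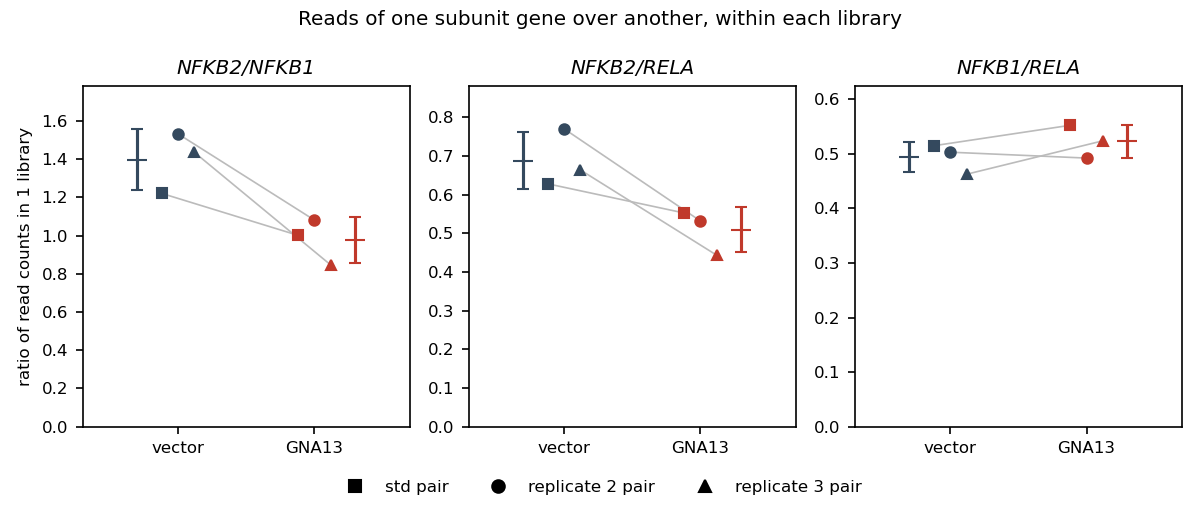
Ratio of the read counts of 2 subunit genes within each library (y axis, from 0, not corrected for gene length), by line and with grey lines joining libraries of a pair; bars give mean ± SD. The ratios with NFKB2 on top are lower in each pBabe-GNA13 library than in each pBabe-vector library, while the NFKB1 to RELA ratio overlaps.

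Of the inhibitors, NFKBIA encodes IκBα, the IκB that is resynthesised fastest after NF-kB activation. The gene lies on chromosome 14 from 35401079 to 35404749 on the minus strand. It was at 53.0, 45.4 and 66.4 CPM in pBabe-GNA13 and at 50.9, 46.6 and 68.0 CPM in pBabe-vector. Replicate 3 was the highest and replicate 2 the lowest in both lines, and the 2 libraries of a pair lay within 0.06 of each other on the log2 scale in every pair. The lines differed by close to 0 on the log2 scale, with an adjusted p of 1 in edgeR. Its 95% interval narrowed from −0.44 to 0.43 without the block to −0.11 to 0.11 with it. A change between the lines of the size seen in NFKB2 therefore lay outside the blocked interval of NFKBIA.

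NFKBIB, which encodes IκBβ, lies on chromosome 19 from 38899700 to 38908893. Its levels were 25.9, 25.8 and 22.6 CPM in pBabe-GNA13 and 26.5, 26.9 and 27.3 CPM in pBabe-vector. The groups did not overlap, but the gap between 25.9 and 26.5 CPM was small and only replicate 3 of pBabe-GNA13 stood well below. Its log2 difference was −0.12 (95% interval −0.37 to 0.13, adjusted p in edgeR 0.899, blocked 0.267), and with upper-quartile factors in place of TMM the groups overlapped. NFKBIB shares 40 exon bases with SIRT2 on the opposite strand.

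NFKBIE, which encodes IκBε, lies on chromosome 6 from 44258166 to 44265788. It was measured at 7.76, 5.52 and 7.15 CPM in pBabe-GNA13 and at 7.87, 7.23 and 7.45 CPM in pBabe-vector. Replicate 2 of pBabe-GNA13 was the lowest, and the pBabe-GNA13 library was the lower one in 3 of 3 pairs, with overlapping groups. A log2 fold change of −0.14 did not pass (adjusted p in edgeR 0.937, blocked 0.433).

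TNFAIP3 lies on chromosome 6 from 137867214 to 137883314, far from NFKBIE on the other arm. A20, its product, is a feedback inhibitor that acts upstream, on the ubiquitin chains of the receptor complexes. It was at 1.31, 2.73 and 2.35 CPM in pBabe-GNA13 and at 1.91, 2.63 and 2.43 CPM in pBabe-vector, from 49 to 93 reads per library. The library tagged std was the lowest in both lines. With a log2 fold change of −0.12, the 95% interval ran from −0.82 to 0.58 (adjusted p in edgeR 0.992), or −0.55 to 0.24 with the block. A difference as large as that of NFKB2 lay within both intervals. TNFAIP3 shares 95 exon bases with the antisense gene WAKMAR2.

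In the kinase complex, IKBKB encodes the catalytic subunit IKKβ and lies on chromosome 8 from 42271302 to 42332460. It was at 36.9, 47.4 and 37.8 CPM in pBabe-GNA13 and at 40.6, 46.0 and 41.4 CPM in pBabe-vector. Replicate 2 was the highest in both lines. The log2 fold change was −0.07, or −0.01 relative to the median of chromosome 8, and neither fit called it (adjusted p in edgeR 0.983, blocked 0.447).

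IKBKG encodes NEMO, the regulatory subunit that binds ubiquitin chains, and lies on chromosome X from 154541199 to 154565046. Its levels were 8.16, 6.67 and 11.1 CPM in pBabe-GNA13 and 7.58, 7.44 and 9.29 CPM in pBabe-vector. Here replicate 3 was the highest and replicate 2 the lowest in both lines, the order seen for NFKBIA. The log2 fold change of 0.09 had a blocked 95% interval of −0.15 to 0.30. Values of IKBKG are uncertain, because a partial copy of the gene lies nearby on the same chromosome. The ratio of IKBKG to IKBKB reads was 0.218 ± 0.0765 in pBabe-GNA13 and 0.191 ± 0.0314 in pBabe-vector (SD, n = 3 each, exact permutation p = 0.8).

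**Figure D3:**
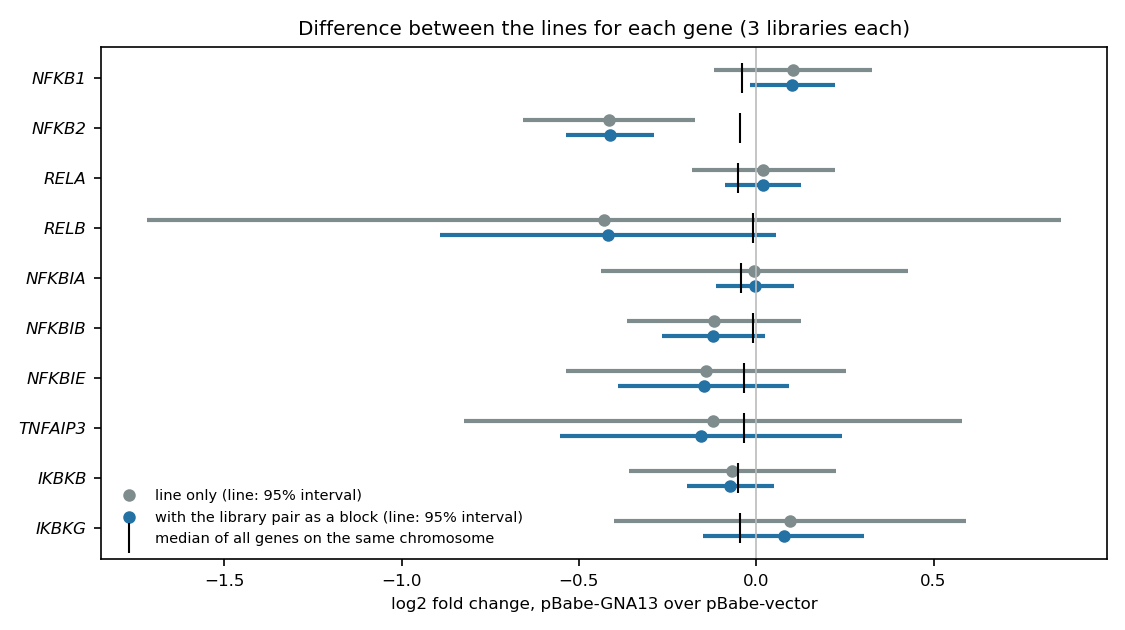
Log2 fold change of pBabe-GNA13 over pBabe-vector (x axis) for each of the 10 genes with its 95% interval, without (grey) and with (blue) the library pair as a block; short black lines mark the median of all genes on the same chromosome. NFKB2 at −0.41 is the only gene whose blocked interval, −0.54 to −0.29, leaves out 0.

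Compared per length, the 10 genes spanned a wide range. CPM were divided by the length of the MANE Select transcript in kilobases. In pBabe-vector, NFKBIA (35.4 ± 7.28 CPM per kb, SD, n = 3) and RELA (34.6 ± 1.13) were the highest and did not differ beyond their spread. NFKBIB (22.6 ± 0.341) and NFKB2 (19.8 ± 1.64) followed, with IKBKB (10.8 ± 0.744) and NFKB1 (10.6 ± 0.451) next and again within their spread. IKBKG (4.11 ± 0.520) and NFKBIE (3.21 ± 0.138) were lower, and RELB (0.867 ± 0.511) and TNFAIP3 (0.498 ± 0.0797) were the lowest, within the spread of RELB. In pBabe-GNA13 the order was the same, except that NFKB1 (11.4 ± 0.784) stood above IKBKB (10.3 ± 1.47), within the spread of IKBKB, and NFKB2 was at 14.9 ± 1.03 CPM per kb. The order depends on the length used. With the union of all exons, NFKB1 (15679 bases in place of 4055) moved below NFKBIE in pBabe-vector. The values were 2.74 ± 0.117 against 2.91 ± 0.125 CPM per kb of exon. IKBKG also moved below NFKBIE in pBabe-vector, at 1.49 ± 0.189 CPM per kb of exon.

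The spread of a gene over the 6 libraries was divided into a share that follows the library pair, a share that follows the line and the rest, as sums of squares of log2 CPM. The pair share was 99.0% for NFKBIA, 85.0% for RELB, 85.0% for IKBKG, 82.5% for IKBKB, 81.4% for TNFAIP3 and 79.3% for RELA. These 6 were above the median of 70.2% over 14059 genes at 1 CPM or more. NFKBIE (55.7%), NFKB1 (33.2%), NFKBIB (18.2%) and NFKB2 (6.83%) were below it. For NFKB2 the line took 83.9% of the spread, a share reached or passed by 3.16% of those genes, while the median gene had 12.6%. A pair share as high as that of NFKBIA was reached by 1.65% of the genes. The library pairs thus differed from each other in NFKBIA by more than the lines did.

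**Figure D4:**
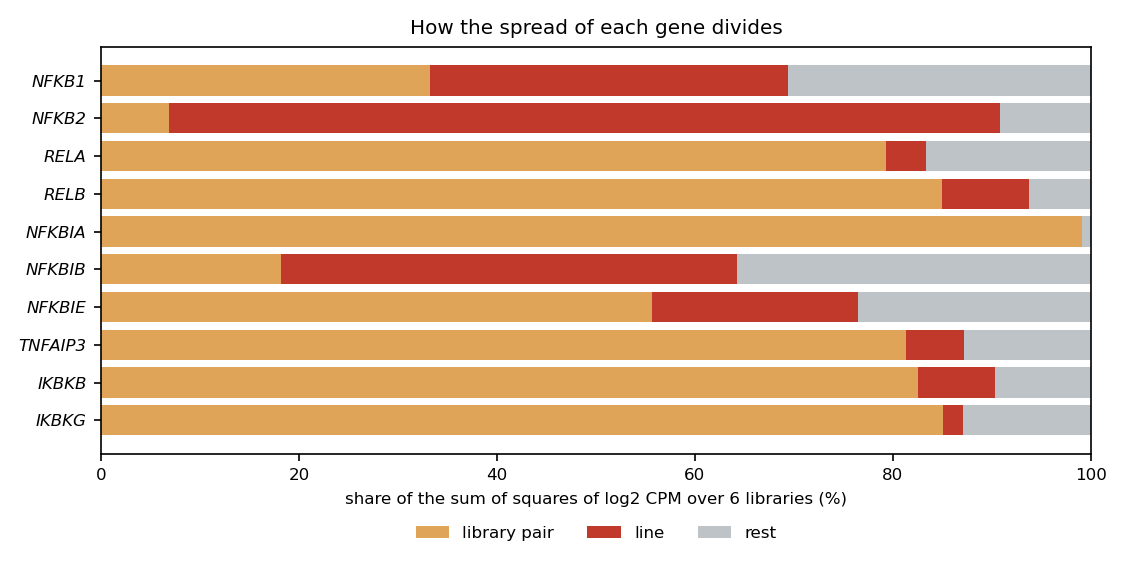
Share of the sum of squares of log2 CPM over 6 libraries (x axis, in percent) that follows the library pair (2 degrees of freedom), the line (1) and the rest (2), for each of the 10 genes. The pair takes 99.0% for NFKBIA, and the line takes 83.9% for NFKB2.

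The genes whose course over the 6 libraries was most like that of NFKBIA were PLEKHG3, TIMM23 and MFN2, with a root mean square difference in centred log2 CPM of 0.019, 0.024 and 0.024, the smallest among 14058 genes compared. The SD of NFKBIA itself over the 6 libraries was 0.25 on the log2 scale. For TNFAIP3, with an SD of 0.39, the nearest genes were HDAC10 (0.11), AP000347.2 (0.11) and RP11-526I2.5 (0.11). Among the 10 genes themselves, NFKBIA and IKBKG were each the other's nearest (0.092), as were NFKB1 and RELA (0.079) and NFKBIB and IKBKB (0.12). This distance is also small between genes that vary little, whatever their course. The highest library was 1.17 times the lowest for NFKB1, 1.11 for RELA, 1.21 for NFKBIB and 1.28 for IKBKB. For these genes a small distance therefore does not show a shared course.

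The rest of the pathway was read from 5 lists by role, with 83 of 97 listed genes in the table. The other 14 genes, TNF, LTA, IL1A and IL1B among them, were not analysed here. Without the block 0 of the 83 genes passed in edgeR, 8 had an unadjusted p under 0.05, beside 8.46% of all genes, and DESeq2 called 1, TNFRSF1A, beside 1.68% of the 16122 genes to which it gave an adjusted p. The blocked fit called 10 of them higher and 6 lower, against 9.32% and 10.4% of all genes. Of these 16, 7 lie on chromosome 12 or 20, where 11 of the 83 genes lie, while TAB1 and LIF lie on chromosome 22. The share of all genes on these chromosomes called with the block was not analysed here. In every blocked fit that left out 1 pair, 6 of the 16 were called, namely TNFRSF1A, LTBR, MYD88, UBE2N, ITCH and BCL2L1. Over all 17297 genes these fits called 3266 without std, 2550 without replicate 2 and 2250 without replicate 3. The share of all genes called in every one of these fits was not analysed here. When every chromosome was centred on its median, the blocked fit called 6 higher and 1 lower, against 6.76% and 7.09% of all genes. Of the genes called in every blocked fit without 1 pair, MYD88 alone was called in the centred fit. NFKB2 was still called (log2 fold change −0.37, adjusted p in edgeR 7.35e-05).

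Among the ligands and receptors, 14 genes were in the table, of which 8 reached a mean of 1 CPM, and the median log2 fold change of the 8 was 0.02. The blocked fit called 3 higher. TNFRSF1A, the main receptor for TNF, was at 75.5, 70.9 and 68.8 CPM in pBabe-GNA13 and at 56.5, 54.0 and 49.3 CPM in pBabe-vector, without overlap. Its log2 fold change was 0.43 (adjusted p in edgeR 0.229, blocked 6.64e-07), and 0.13 after the median of chromosome 12 was taken off. LTBR, the lymphotoxin β receptor that signals to p100 processing, differed by 0.30 on the log2 scale (adjusted p in edgeR 0.664, blocked 5.74e-05) and stood at 0.007 once the chromosome median was taken off. For IL1R1, the receptor for IL-1, the log2 fold change was 0.26 (adjusted p in edgeR 0.839, blocked 0.00210, and up to 0.101 in blocked fits without 1 pair). After centring, TNFRSF1A (adjusted p in edgeR 0.0832) and LTBR (0.923) were no longer called.

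The adaptors and kinases had 25 genes in the table with a median log2 fold change of 0.01, and the blocked fit called 2 higher and 2 lower. MYD88, the adaptor of Toll-like and IL-1 receptors, was at 41.8, 35.2 and 46.0 CPM in pBabe-GNA13 and at 28.4, 23.8 and 32.8 CPM in pBabe-vector. All 3 pBabe-GNA13 libraries were above all 3 of pBabe-vector. Its log2 difference was 0.53 ± 0.15 (standard error; adjusted p in edgeR 0.367, blocked 3.17e-07). Unlike TNFRSF1A, it kept its value relative to its chromosome, 0.57 on chromosome 3, with an adjusted p of 1.31e-07 in the centred blocked fit of edgeR. TBK1, a kinase related to the IκB kinases, and TAB1, a partner of the kinase TAK1, had log2 fold changes of 0.19 and −0.19, with blocked adjusted p of 0.0109 and 0.0139 in edgeR. Neither was called after centring (0.257 and 0.717). MALT1, a protease and scaffold of the pathway, was the other gene called lower with the block (adjusted p in edgeR 0.0192). Its blocked adjusted p in edgeR was 0.0454 after centring and up to 0.336 without 1 pair. CHUK, which encodes IKKα, was level at 29.8 ± 3.05 CPM in pBabe-GNA13 and 29.6 ± 3.93 CPM in pBabe-vector (SD, n = 3 each). MAP3K14, the kinase NIK that drives p100 processing, was at 15.8 ± 1.49 and 18.0 ± 2.21 CPM (SD, n = 3 each) and was not called in either fit (adjusted p in edgeR 0.854, blocked 0.108).

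The ubiquitin machinery, with 15 genes and a median of −0.03, had 1 gene called higher and 2 lower with the block. UBE2N, the enzyme that builds K63-linked chains, was the higher one, with a log2 fold change of 0.31, but 0.01 relative to chromosome 12. ITCH, a ubiquitin ligase that works with A20, and FBXW11, a subunit of the ligase that takes phosphorylated IκB to degradation, were lower, at −0.34 and −0.14. After centring UBE2N (adjusted p in edgeR 0.920), ITCH (0.0861) and FBXW11 (0.143) were not called, while RBCK1, a subunit of the linear chain ligase on chromosome 20, was (log2 fold change 0.26, adjusted p in edgeR 0.000637). As measured, RBCK1 stood at 0.06 (adjusted p in edgeR 0.988, blocked 0.519), and at 0.10 relative to the genes within 5 Mb of it. Among the 6 other subunits and nuclear IκB proteins the median was 0.11 and none was called, with or without the block. REL was at 6.48, 6.79 and 5.93 CPM in pBabe-GNA13 and at 5.10, 4.87 and 5.67 CPM in pBabe-vector. Its libraries did not overlap, but its log2 fold change of 0.30 did not pass (adjusted p in edgeR 0.705, blocked 0.106). BCL3 and NFKBID, nuclear IκB proteins that bind p50 and p52 dimers, had log2 fold changes of 0.21 and 0.26 with blocked adjusted p of 0.171 and 0.277 in edgeR.

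**Figure D5:**
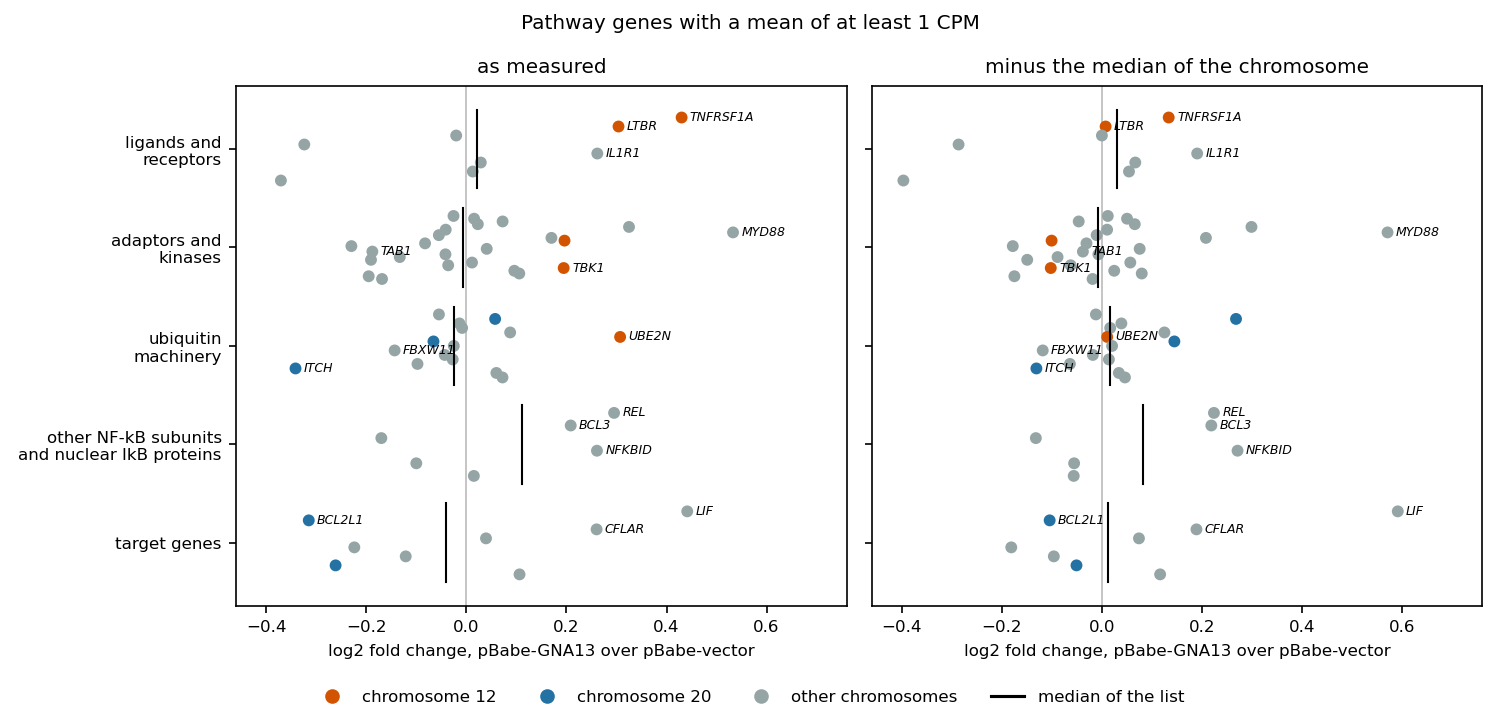
Log2 fold change of the pathway genes with a mean of at least 1 CPM (x axis), by role, as measured (left) and after the median of the gene's chromosome was taken off (right); points on chromosome 12 are orange, on chromosome 20 blue, and black lines are list medians. TNFRSF1A moves from 0.43 to 0.13 and UBE2N from 0.31 to 0.01, while MYD88 stays at 0.53 and 0.57.

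The target list held 23 genes in the table, but 15 of them had a mean under 1 CPM. The 8 genes above that level had a median log2 fold change of −0.04. SOD2, the mitochondrial superoxide dismutase, was at 72.2, 64.8 and 70.5 CPM in pBabe-GNA13 and at 67.9, 67.8 and 66.3 CPM in pBabe-vector, with overlapping groups. Its log2 fold change was 0.04 (standard error 0.09), with an adjusted p of 0.988 in edgeR, or 0.693 with the block. SOD2 shares exon bases with ACAT2 and WTAP on the opposite strand. BCL2L1, which encodes the survival protein BCL-xL, had a log2 fold change of −0.32, called with the block (adjusted p in edgeR 4.67e-05) and not after chromosome 20 was centred (0.175). LIF, a cytokine, was at 5.27, 8.31 and 6.74 CPM in pBabe-GNA13 and at 4.51, 5.76 and 4.71 CPM in pBabe-vector, higher in 3 of 3 pairs. Its log2 fold change was 0.44 (adjusted p in edgeR 0.653, blocked 0.0152), and 0.59 relative to chromosome 22. The call of LIF was lost without 1 pair (adjusted p in edgeR up to 0.112). CFLAR, an inhibitor of caspase-8, had 0.26 (adjusted p in edgeR 0.766, blocked 0.00473 and 0.0509 after centring). SDC4 was called lower with the block (adjusted p in edgeR 0.0207) and was not called after centring (0.911).

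Chemokines and other inducible targets were near the floor. CXCL8 had 10, 0 and 10 reads in pBabe-GNA13 and 7, 3 and 0 in pBabe-vector. CXCL5 had 7, 0 and 12 reads in pBabe-GNA13 and 13, 0 and 9 in pBabe-vector. Neither was called (adjusted p in edgeR 0.922 for CXCL8 and 1 for CXCL5, and 0.488 and 0.907 with the block). CCL5 was lower, with 1, 1 and 3 reads in pBabe-GNA13 and 9, 6 and 3 in pBabe-vector. Its CPM did not overlap, but it was not called (adjusted p in edgeR 0.562, blocked 0.225). Of the 23 target genes, 0 were separated upward and 2 downward, CCL5 and BCL2L1, beside 7.3% and 6.79% of all genes. The blocked fit called CXCL1 (adjusted p in edgeR 0.0386) and PLAU, the urokinase gene (0.0172), higher, both on few reads. CXCL1 had 4, 0 and 11 reads in pBabe-GNA13 and 0 in each pBabe-vector library, and PLAU had 18, 0 and 19 against 2, 0 and 4. In both lines replicate 2 had no read of either gene, and both calls were lost without 1 pair (adjusted p in edgeR up to 0.426 and 0.205). Of the 7 basal and mesenchymal markers, KRT5, TP63 and CDH2 also had no read in replicate 2 of either line, while KRT14, VIM, FN1 and COL1A1 had reads in every library. KRT5, a keratin of basal cells, was at 3.08, 0 and 3.72 CPM in pBabe-GNA13 and 0.572, 0 and 0.592 CPM in pBabe-vector. KRT14, its partner keratin, was at 4.26, 4.49 and 4.39 CPM in pBabe-GNA13 and 1.81, 2.48 and 1.81 CPM in pBabe-vector, and VIM, the filament protein vimentin, at 3.43, 4.08 and 3.69 CPM and 1.72, 3.90 and 1.93 CPM. The 7 markers summed to 404 to 528 CPM in pBabe-GNA13 and 284 to 428 CPM in pBabe-vector, most of it FN1, and TP63 had no read in pBabe-vector. Of the 2 leukocyte and endothelial markers analysed, CD14 was at most at 0.206 CPM in any library and VWF was at 14.6 to 30.5 CPM in pBabe-GNA13 and 6.54 to 20.6 CPM in pBabe-vector. The part of other cell states in the low target genes was not tested.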

How the data were processed

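The deposited table holds raw read counts for each gene symbol, as whole numbers. The authors aligned paired-end reads with STAR to a Gencode transcriptome and counted them with featureCounts, after FastQC 0.11.7 (submitters' processing notes). The version of STAR and the use of strand were not given in the sources used here. TMM and limma belong to the study's own analysis and were not applied to the deposited counts. All 6 columns were used.

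These counts, scaled by TMM factors, entered the test of edgeR 4.0.16 (glmQLFit and glmQLFTest, abundance trend, no filter on low counts, R 4.3.3) over all 17297 genes, with the line as the only term and p-values adjusted by Benjamini-Hochberg. The threshold for a call was an adjusted p of 0.05. Alternatives used DESeq2 1.42.0, limma 3.58.1, other scaling and filters, the library pair as a block, and libraries left out. Log2 CPM had a prior count of 2. Deviations from the group means correlated within the pairs by 0.658 (std), 0.771 (replicate 2) and 0.873 (replicate 3) across 12814 genes, which are not independent. Otherwise they correlated by −0.726 to 0.0766. Deviations cancel out within a line, so these lower values follow in part from the values within pairs. The pairs were treated as pairs, but no label says that the cultures were paired. The blocked p-values thus rest on a pairing taken from the column headings and these same counts. The block moved the number of called genes from 24 to 3407. Chromosome medians rest on the 86.6% of genes at 1 CPM or more that had a position (Gencode 44, or RefSeq). Scripts were tested on simulated counts that held no effect of library pair or chromosome. That test therefore does not cover the difference between fits with and without the block. Figures were drawn with matplotlib 3.10.9.

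The 10 genes and the pathway lists were chosen with earlier results of these data known. Beside the 10 genes, the text names the 3 genes of each list with the smallest unadjusted p at 1 CPM or more, CXCL5, CXCL8 and SOD2, and the 3 genes most like NFKBIA and TNFAIP3. CHUK, MAP3K14, MALT1, RBCK1, SDC4, CXCL1, PLAU, CCL5 and the single marker genes fall outside this rule and were added once their values had been seen. Some marker results are not reported here.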

Additional observations from a re-analysis of the deposited data

How the results depend on the processing

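Of 180 tested alternative values for the 10 genes, 175 kept the call of the fit without a block and 5 did not, all of them NFKB2 called lower in the fits with a replicate block (−0.41 with all pairs, −0.37 with each chromosome centred, −0.51 without the std pair, −0.38 without replicate 2 and −0.35 without replicate 3). NFKB2 stayed below 0 in 20 of 20 alternatives, while its edgeR adjusted p with 1 library left out was 0.431 to 0.731 (log2 fold change −0.47 to −0.35) and that of DESeq2 was 0.0697. The block changed no other call among the 10 genes. The 20 untested values, relative to the chromosome or to genes within 5 Mb, moved by less than 1 SD over libraries. Uncalled differences of RELA, RELB, NFKBIA, TNFAIP3, IKBKB and IKBKG kept their sign in 10 (NFKBIA) to 19 of 20 alternatives. The number of called genes was 271 with DESeq2, 5 with limma-trend, 8 with a term for the std libraries, 2 to 15 with 1 library left out, 3407 with the block, 2397 with the block and centred chromosomes, and 2250 to 3266 with the block and 1 pair left out (3266 without std, 2550 without replicate 2, 2250 without replicate 3). Called genes among the 10 were 0 in all fits without the block and 1 in all 5 with it. Of the 83 pathway genes, 1 was called by DESeq2, 16 with the block, 7 with the block and centred chromosomes, 14, 8 and 9 in blocked fits that left out the std libraries, the second or the third replicates, and 9 with the block when genes on chromosomes 12 and 20 were left out, an alternative chosen after seeing the data, as were the newer quasi-likelihood method and the medians of genes within 5 Mb. The number of the 10 genes whose groups did not overlap was 1 in place of 2 with upper-quartile factors. The cause of these differences was not tested. RELB and TNFAIP3 had at most 110 reads in any library, and the part of depth in their spread was not tested.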
